A study of Mus musculus with 9 samples.

Results

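The ionotropic glutamate receptors of the AMPA and NMDA classes carry most fast excitatory signals between neurons of the brain. The members described here are the 10 genes Gria1, Gria2, Gria3 and Gria4, which encode the AMPA receptor subunits GluA1 to GluA4, and Grin1, Grin2a, Grin2b, Grin2c, Grin2d and Grin3a, which encode NMDA receptor subunits. They were chosen by gene symbol from the 53465 genes of a count table of mouse whole-brain RNA by a rule that names the receptor family. All 10 passed the filter on low counts that left 18501 genes for testing. RNA was sequenced from 9 male C57BL/6 mice kept under specific pathogen-free conditions and 7 weeks old at the start, and each mouse gave its own library. The 3 control mice (CON) received saline. The 3 mice with diabetic neuropathic pain (DNP) were kept on a 60% fat diet for 4 weeks. They were injected with 50 mg/kg per day of streptozotocin, which destroys the insulin-producing cells of the pancreas, on 7 days in a row. They then received saline. The 3 baclofen-treated mice (BAC) had the same diet and streptozotocin. They then received 8 mg/kg of baclofen, a drug that activates the metabotropic GABA-B receptor, on each of 7 days. Diabetic mice were enrolled in the model at a fasting glucose of at least 16.7 mmol/L and with lowered pain thresholds, so that DNP and BAC hold selected animals. Diet, streptozotocin, hyperglycemia and pain were joined in both diabetic groups, and their parts cannot be told apart.

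AMPA receptors are tetramers of GluA subunits that open within milliseconds of glutamate binding. NMDA receptors contain the obligatory GluN1 subunit (Grin1), which binds the co-agonist glycine, together with GluN2 subunits (Grin2a to Grin2d), which bind glutamate, or GluN3 subunits (Grin3a). The GluN2 subunits are known for their regional expression: Grin2b is a forebrain subunit, Grin2c is abundant in cerebellar granule cells, and Grin2d is found mainly in the diencephalon, midbrain and brainstem. Both receptor classes are studied in pain because they mediate and strengthen transmission along nociceptive pathways.

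All the subunits share a pore loop, and the residue at its tip decides how much calcium the channel passes. The stretches below were read from the GENCODE annotation of GRCm38 and are shown because they carry the feature by which the members are told apart functionally. Each is 48 bases of coding sequence, written 5′ to 3′ on the gene's strand, with the codon of the pore-tip residue in capitals and exons numbered in the principal transcript.

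Gria1 (chr11:57243070-57243117, plus strand, exon 11, codon 600): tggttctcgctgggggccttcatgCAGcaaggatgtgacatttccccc

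Gria2 (chr3:80706890-80706937, minus strand, exon 11, codon 607): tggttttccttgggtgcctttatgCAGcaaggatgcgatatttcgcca

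Gria4 (chr9:4464116-4464163, minus strand, exon 12, codon 608): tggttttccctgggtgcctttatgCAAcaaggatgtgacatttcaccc

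Grin2c (chr11:115253842-115253889, minus strand, exon 11, codon 612): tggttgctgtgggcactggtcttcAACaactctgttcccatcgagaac

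The AMPA genes carry a glutamine codon at this site, which is CAG in Gria1, Gria2 and Gria3 and CAA in Gria4. In Gria2 this codon is known to be edited in the RNA so that the protein carries arginine and the channel passes little calcium. The sequence shown is that of the genome, and counts per gene do not show the edited share. Grin1, Grin2a, Grin2b, Grin2c and Grin2d carry the asparagine codon AAC, a residue known for its role in the block by magnesium. Gria1 and Gria2 had the same base at 39 of the 48 positions, Gria2 and Gria3 at 45, and Grin2c and Grin2d at 39. The stretch of Gria2 and that of Grin2c shared 15 bases. Grin3a has another sequence at its pore, and its stretch is not shown.

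Between 13107382 and 16008129 counts were assigned to genes per library, and the biological coefficient of variation over all genes was 36.5%. Hindbrain markers were unevenly spread within each diabetic group, and cerebellar markers within every group. The 9 markers of brainstem and spinal cord, such as Hoxb5, Hoxa5 and Tph2, summed to 423 to 497 CPM (counts scaled to a common library size) in DNP 1, BAC 1 and BAC 3 and to 0.540 to 29.3 CPM in the other 6 libraries, where 5 to 7 of the 9 were at 0 counts. The mean log2 deviation of these markers from the average of the libraries was 4.02, 4.26 and 5.02 in those 3 libraries and -2.56 to -1.61 in the others. The 7 markers of cerebellar granule cells summed to 5719 CPM in CON 2 and 2961 CPM in BAC 1. In DNP 2, DNP 3 and BAC 2 their score was -3.53 to -3.36, with 0 counts of the granule cell receptor gene Gabra6. The mean score of the genes of all neurons was even across the libraries (-0.20 to 0.18), but single genes of that list were not. Syt1 had 25667 counts in CON 1 and 5803 in BAC 1, and Nefl had 3463 in CON 2 and 19297 in DNP 1. The score of 3 blood markers was lower in every CON library (-1.28 to -0.77) than in every diabetic library (0.18 to 0.95). The tissue labelled whole brain therefore held different proportions of hindbrain and cerebellum, and the counts and main fold changes of the members are also given without the libraries that stood apart. In bulk tissue, fewer cells of a type and less RNA per cell cannot be told apart.

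To compare the subunits with each other, levels per length were taken from the deposited FPKM values (fragments per kilobase of gene length, scaled to the library total). Averaged over the 9 libraries, Grin2c (40.0 ± 43.4 FPKM, SD, n = 9) and Grin1 (39.6 ± 8.18) stood first. Gria1 followed with 35.3 ± 7.61 FPKM, Gria2 with 24.1 ± 6.54 and Gria4 with 22.0 ± 12.9. The lower levels were those of Gria3 (11.8 ± 4.15), Grin2b (10.1 ± 7.57), Grin2a (5.95 ± 2.51), Grin2d (4.97 ± 1.86) and Grin3a (2.77 ± 0.889). Of the 9 pairs of neighbours in this order, Gria1 lay above Gria2 and Grin2d above Grin3a in 9 of 9 libraries. The other neighbours did not keep their order in every library, and Grin2c exceeded Grin1 in 2 of 9. Its first place rested on CON 2 with 149 FPKM and BAC 1 with 61.8 FPKM, and its median was 24.04 FPKM.

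This order depended on the gene length used. The lengths implied by the FPKM values exceeded the exonic length of the genes in the annotation, with 14548 against 9700 bases for Grin1 and 11985 against 6043 for Gria1. On CPM per kilobase of the principal transcript, Grin1 was first with 136, followed by Gria1 with 78.3, Gria2 with 50.6 and Grin2c with 44.5. The obligatory NMDA subunit and the main AMPA subunits thus led on that scale, and Grin2b, Grin2a, Grin2d and Grin3a kept ranks 7 to 10 on both.

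Gria1 (ENSMUSG00000020524, chromosome 11, 57011387 to 57330244 of GRCm38), whose subunit is inserted into synapses during potentiation, was the most even member in CON. Its libraries had 509.6, 516 and 525 CPM in CON. In DNP they had 247, 455 and 337 CPM, and in BAC 439, 450.4 and 339 CPM. Every diabetic library lay below every CON library, and the lowest was DNP 1.

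Gria2 (ENSMUSG00000033981, chromosome 3, 80681450 to 80802835), which sets the calcium permeability of AMPA receptors, had 691, 474 and 697 CPM in CON. DNP libraries had 308, 615 and 537 CPM, and BAC libraries 459, 677 and 303 CPM. The groups overlapped, and the lowest values were those of DNP 1 and BAC 3. Gria3 (ENSMUSG00000001986, on the X chromosome, 41400854 to 41678601), a partner of GluA2 in the forebrain, ranged from 108 CPM in BAC 3 to 315 CPM in CON 1. Within each group its lowest library was CON 2, DNP 1 or BAC 3, and its group medians were 294 CPM in CON, 256 in DNP and 133 in BAC.

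Gria4 (ENSMUSG00000025892, chromosome 9, 4417896 to 4796234), known for its expression in the cerebellum and brainstem, had the opposite pattern across libraries. Its CON libraries had 119, 422 and 172 CPM. DNP libraries had 189.5, 121 and 113 CPM, and BAC libraries 340, 94.5 and 232 CPM. CON 2 and BAC 1, the libraries with the most granule cell markers, were the highest, and the groups overlapped.

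Grin1 (ENSMUSG00000026959, chromosome 2, 25291181 to 25319187) had 815, 610.2 and 741 CPM in CON. The DNP libraries had 489, 428 and 605 CPM, all below the lowest CON library. The BAC libraries had 467, 629.8 and 442 CPM, of which BAC 2 lay above CON 2. Exons of Grin1 overlap those of the antisense gene Grin1os over 1307 bases. Grin1os had 224 to 541 counts per library, and without strand the reads of both genes cannot be told apart there.

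Grin2b (ENSMUSG00000030209, chromosome 6, 135713233 to 136173511) spanned a 10.4-fold range over the 9 libraries. CON libraries had 709, 104 and 632 CPM. DNP libraries had 126, 343 and 316.5 CPM, and BAC libraries 67.9, 420.3 and 81.5 CPM. In each group the low values were those of libraries with many cerebellar or brainstem markers, namely CON 2, DNP 1, BAC 1 and BAC 3. Grin2a (ENSMUSG00000059003, chromosome 16, 9567898 to 9995560), the other GluN2 subunit of the adult forebrain, had 254, 121 and 240.4 CPM in CON. It had 78.2, 149 and 184 CPM in DNP and 99.1, 158.5 and 64.4 CPM in BAC. The same 4 libraries were lowest, and the groups overlapped through CON 2.

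Grin2c (ENSMUSG00000020734, chromosome 11, 115249169 to 115267243) ran the other way and spanned a 13.8-fold range. CON libraries had 58.2, 804 and 167 CPM, so that the lowest and the highest library of the series were both controls. DNP libraries had 116, 131 and 101 CPM, and BAC libraries 321, 109 and 135 CPM. The highest values were again those of CON 2 and BAC 1.

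Grin2d (ENSMUSG00000002771, chromosome 7, 45831883 to 45878378) had 35.0, 34.9 and 32.3 CPM in CON, a 1.08-fold range. DNP libraries had 70.0, 43.8 and 39.5 CPM, and BAC libraries 47.5, 39.4 and 79.8 CPM. Every diabetic library lay above every CON library, and DNP 1, BAC 1 and BAC 3, with the brainstem markers, were the highest. The 8 markers of thalamus and midbrain, regions where Grin2d is also known to be used, had scores of -1.03 to -0.10 in CON, 0.20 to 0.58 in DNP and -0.35 to 1.42 in BAC. Exons of Grin2d overlap the antisense gene Gm45441 (9 to 115 counts) over 643 bases.

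Grin3a (ENSMUSG00000039579, chromosome 4, 49661611 to 49845744), whose subunit lowers the calcium permeability of NMDA receptors, had 56.3, 40.6 and 56.4 CPM in CON. DNP libraries had 58.9, 32.8 and 24.3 CPM, and BAC libraries 65.5, 51.9 and 73.9 CPM. The groups overlapped, with DNP 2 and DNP 3 below all other libraries. The plot of the 10 subunits shows these values side by side.

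**Figure D1:**
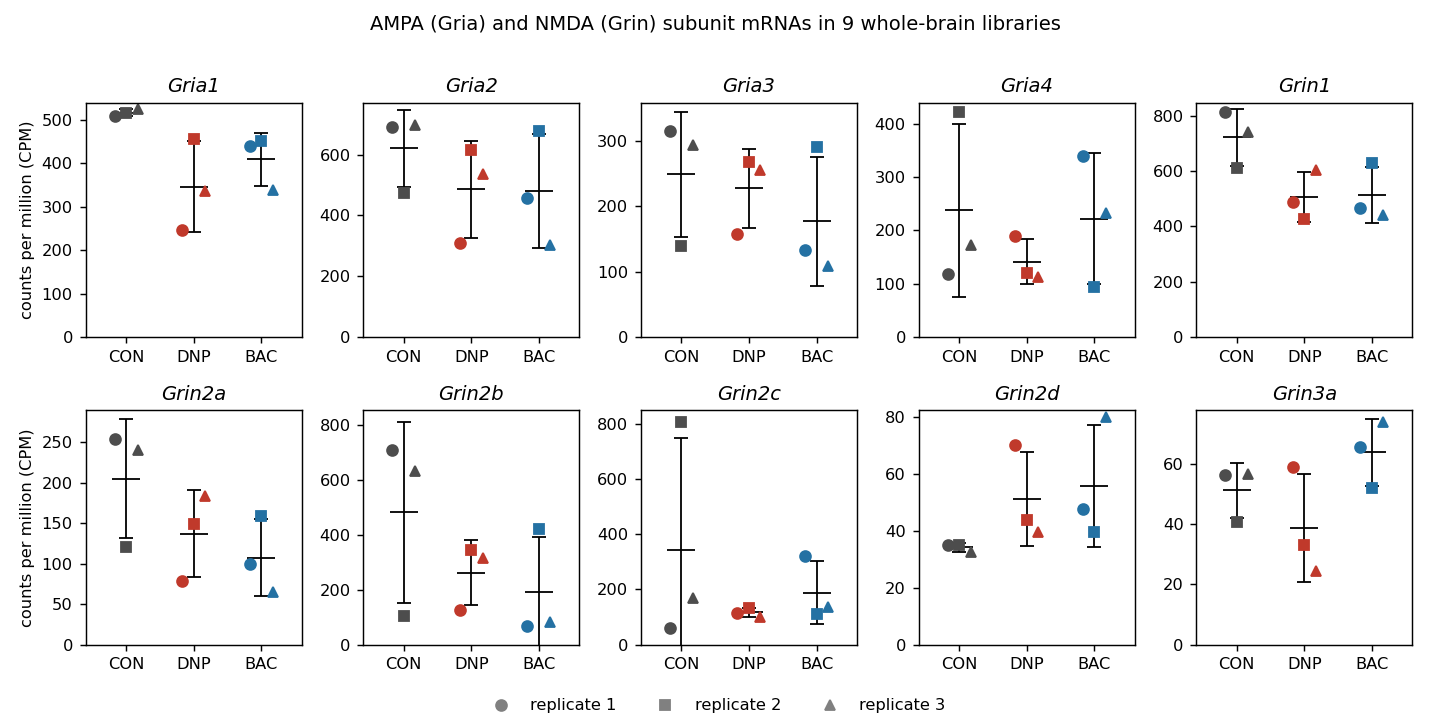
Level of each AMPA (Gria) and NMDA (Grin) subunit gene in CPM (vertical axes, each with its own scale from 0) in the 3 CON, 3 DNP and 3 BAC libraries. Points are libraries with the shape giving the replicate number, and the black lines are the group mean ± SD, which runs below 0 for Grin2b and Grin2c. The CON values of Gria1 lie above and those of Grin2d below all diabetic libraries, while Grin2b and Grin2c vary most within CON.

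To ask whether the model changed the subunits, DNP was compared with CON. Of the 10 members, 9 had lower mean values in DNP, and their median log2 fold change was -0.54 against 0.01 over all genes tested. No member had an adjusted p under 0.05 in the quasi-likelihood test of edgeR, where the share of all genes called was 0% (0 genes). In DESeq2, which called 1.85% of all genes, the number of members called was also 0. At an unadjusted p under 0.05, edgeR called 2 members, Gria1 and Grin1, and DESeq2 called 3, with Grin2c in addition. The share of all genes called by edgeR at that threshold was 11.2%, so 2 of 10 is not far from the background. DESeq2 called 2415 of the 18501 genes there. The libraries of the groups did not overlap for 3 members (Gria1, Grin1 and Grin2d), and for 18.2% of all genes.

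Gria1 averaged 517 ± 7.82 CPM in CON and 346.5 ± 104 CPM in DNP (SD of 3 mice per group), which gives a log2 difference of -0.58 (standard error 0.23, edgeR unadjusted p = 0.0325, adjusted p = 0.409). Grin1 averaged 722 ± 103.5 and 507 ± 90.2 CPM, a log2 fold change of -0.51 (standard error 0.21, edgeR unadjusted p = 0.0377, adjusted p = 0.420). Grin2d was higher in DNP by 0.58 on the log2 scale (standard error 0.30, edgeR unadjusted p = 0.0829). The 95% interval was -1.09 to -0.06 for Gria1, -0.98 to -0.04 for Grin1 and -0.09 to 1.26 for Grin2d. Grin2c had the largest mean difference, -1.56, with a standard error of 0.83 that reflects the spread within CON. The remaining members had log2 fold changes of -0.88 (Grin2b), -0.75 (Gria4), -0.58 (Grin2a), -0.40 (Grin3a), -0.35 (Gria2) and -0.13 (Gria3), each with a 95% interval that holds 0.

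Both calls depended on single libraries. The value of Gria1 was -0.38 without DNP 1 (unadjusted p = 0.0929 in edgeR), and its unadjusted p was also above 0.05 without DNP 3 (0.0801) or without CON 1, CON 2 or CON 3 (0.0615, 0.0556 and 0.0724). That of Grin1 was above 0.05 without CON 1 (0.119), CON 3 (0.0867), DNP 1 (0.0875) or DNP 2 (0.115), with log2 fold changes of -0.49 to -0.41. The number of members called was 0 without CON 3 and 3 without BAC 3, which enters through the shared estimate of the spread. It was 1 without CON 1 (Grin2c), CON 2 (Grin1), DNP 1 (Grin3a), DNP 2 (Gria1) or DNP 3 (Grin1). Of all 18501 genes, 1399 (without DNP 3) to 2180 (without BAC 2) were called with 1 library left out. With all 9 libraries it was 2067 genes.

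To ask whether baclofen changed the subunits in diabetic mice, BAC was compared with DNP. Of the 10 members, 4 were lower and 6 higher on average in BAC, and the median log2 fold change was 0.07 (all genes -0.01). No member passed an adjusted p of 0.05 in edgeR (0% of all genes, 0 genes) or in DESeq2 (0.0379% of all genes). At an unadjusted p under 0.05, Grin3a alone was called, by both tools, where edgeR called 2.37% of all genes and DESeq2 548 of 18501. The groups did not overlap for 0 members and for 6.79% of all genes.

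Grin3a averaged 38.7 ± 18.0 CPM in DNP and 63.8 ± 11.2 CPM in BAC (SD of 3 mice per group), which gives a log2 difference of 0.72 (standard error 0.32, edgeR unadjusted p = 0.0499, adjusted p = 0.998). DNP 1 exceeded BAC 2, so the groups overlapped. This p lay at the threshold: it was 0.0505 with other size factors, and it was above 0.05 in 7 of the 9 fits that left out a library, with values of 0.0513 to 0.148. These were the fits without CON 1, CON 2, CON 3, DNP 2, DNP 3, BAC 1 or BAC 3, and 0 members were called in each of them except the fit without DNP 2, where Gria1 was. Without BAC 2, the members called were Gria3 and Grin3a, the latter at 0.85 (edgeR unadjusted p = 0.0408). Of all 18501 genes, 205 (without DNP 3) to 1448 (without BAC 2) were called with 1 library left out. With all 9 libraries it was 438 genes. The difference of Grin3a was 1.16 without DNP 1 (unadjusted p = 0.00167 in edgeR) and 0.58 with the brainstem and granule cell scores as covariates (0.0156). Its adjusted p was 0.603 or more in each of these fits. Without DNP 1, BAC 1 and BAC 3 the difference was 0.86, and without these and CON 2 it was 0.87. Both values set BAC 2 (51.9 CPM) alone against DNP 2 and DNP 3, and leave out DNP 1 (58.9 CPM), which exceeded BAC 2.

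The other 9 members had log2 fold changes in BAC versus DNP of -0.46 (Grin2b) to 0.70 (Grin2c). Grin1, at 507 ± 90.2 CPM in DNP and 513 ± 102 CPM in BAC, had a log2 fold change of 0.02 with a 95% interval of -0.46 to 0.49. Gria1 had 0.24 (interval -0.27 to 0.76) and Grin2d 0.12 (-0.55 to 0.80). In DNP versus CON, which shares the DNP libraries, the values were -0.58 for Gria1, -0.51 for Grin1 and 0.58 for Grin2d. A difference of that size in the opposite direction lies inside the interval of Gria1 and just outside those of Grin1 and Grin2d. The DNP versus CON values are themselves estimates with their own error, so this is no separate test of a full reversal. Whether BAC mice were back at the CON level is what the next comparison asks.

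BAC mice were also compared with CON, which shares its BAC libraries with the comparison above and its CON libraries with the first. Of the 10 members, 8 had lower means in BAC, with a median log2 fold change of -0.43 (all genes -0.02). No member was called at an adjusted p of 0.05 by edgeR (0% of all genes, 0 genes) or by DESeq2 (0.552% of all genes). At an unadjusted p under 0.05, edgeR called 2 members (7.76% of all genes) and DESeq2 called 3, with Grin2a in addition. DESeq2 called 1701 of the 18501 genes there. The groups did not overlap for 2 members, Gria1 and Grin2d, and for 13.4% of all genes.

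Grin1 was lower in BAC than in CON by a log2 fold change of -0.49 (standard error 0.21, edgeR unadjusted p = 0.0427, adjusted p = 0.636). Grin2d averaged 34.1 ± 1.52 CPM in CON and 55.6 ± 21.4 CPM in BAC (SD of 3 mice per group), which gives a log2 difference of 0.71 (standard error 0.30, edgeR unadjusted p = 0.0433, adjusted p = 0.636). Without BAC 3 the latter was 0.35 (unadjusted p = 0.214 in edgeR). No member was called without CON 1, CON 3 or BAC 3, 1 was without BAC 1 (Grin2d) or DNP 2 (Grin1), and 5 were without BAC 2 (Gria3, Grin1, Grin2a, Grin2b and Grin2d). BAC 2 is the BAC library without brainstem markers. Of all 18501 genes, 596 (without BAC 3) to 2640 (without BAC 2) were called with 1 library left out. With all 9 libraries it was 1436 genes. The means of Grin2b (482 ± 329 CPM in CON and 190 ± 200 CPM in BAC) differed by less than the SD within CON.

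Pooling both diabetic groups, 6 libraries were set against the same 3 CON libraries. In this comparison 9 of 10 members were lower on average, with a median of -0.44 (all genes -0.01). The number of members past an adjusted p of 0.05 was 0 in edgeR (0% of all genes, 0 genes) and 0 in DESeq2 (2.05% of all genes). At an unadjusted p under 0.05, edgeR called 3 members and 11.8% of all genes, and DESeq2 called 4 members, with Grin2a in addition. DESeq2 called 2489 of the 18501 genes there. Gria1 and Grin2d were the 2 members without overlap between the 6 diabetic and the 3 CON libraries, which held for 6.95% of all genes.

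Grin1 was lower in diabetic mice by a log2 fold change of -0.50 (standard error 0.18, edgeR unadjusted p = 0.0202, adjusted p = 0.352). Gria1 had -0.46 (standard error 0.19, edgeR unadjusted p = 0.0432, adjusted p = 0.405). Grin2d had 0.65 (standard error 0.26, edgeR unadjusted p = 0.0385, adjusted p = 0.395). Grin1 was below the lowest CON library in 5 of the 6 diabetic libraries. The count of members called was 0 without CON 3, and 1 without CON 1 (Grin2c), DNP 1 (Grin1) or BAC 3 (Grin1). It was 5 without BAC 2 (Gria1, Grin1, Grin2a, Grin2b and Grin2d), and 3 without each of the other libraries. Of all 18501 genes, 1400 (without CON 3) to 2757 (without BAC 2) were called with 1 library left out. With all 9 libraries it was 2190 genes. With all 9 libraries, the lowest adjusted p of the members in this comparison was 0.352 in edgeR and 0.155 in DESeq2. With 1 library left out, the lowest in edgeR was 0.260 (without BAC 2).

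**Figure D2:**
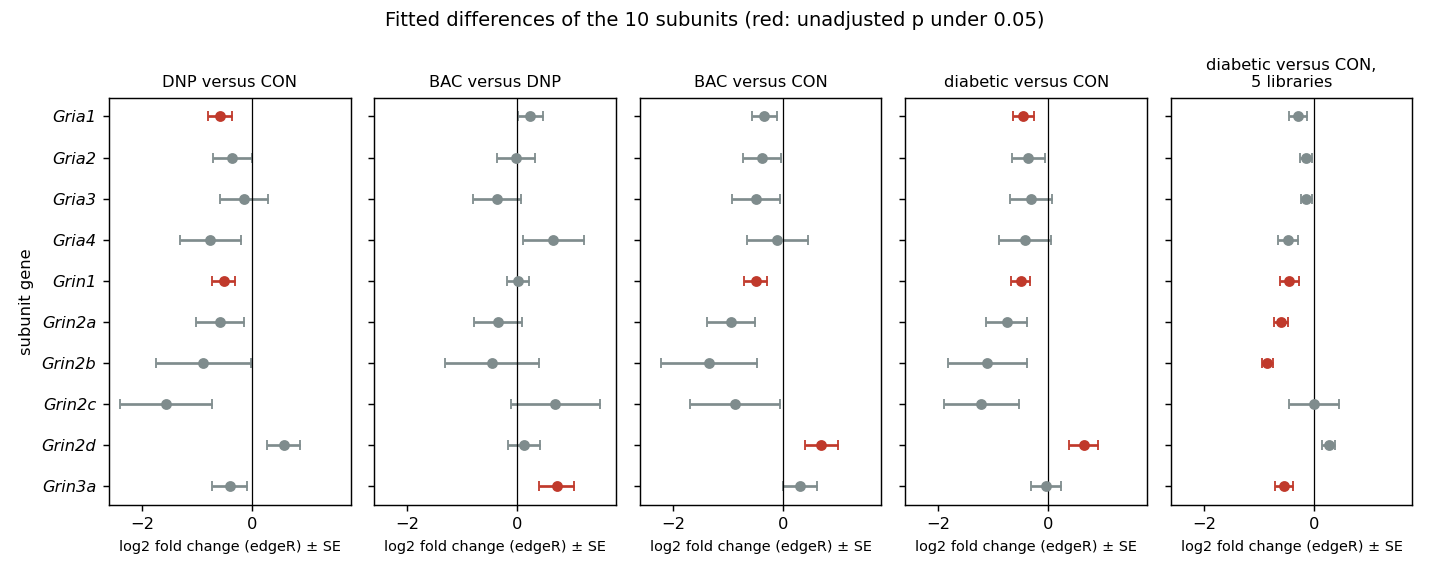
Log2 fold change of each subunit gene with its standard error (horizontal axes, edgeR) in the 4 comparisons and, at the right, in the diabetic versus CON comparison among CON 1, CON 3, DNP 2, DNP 3 and BAC 2. Red points have an unadjusted p under 0.05, and no member passed an adjusted p of 0.05 in any panel. The standard error of Grin2b is 0.72 with all 9 libraries and 0.11 with those 5.

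To see how far the regional makeup of the libraries bore on these differences, the comparisons were repeated without the libraries that stood apart. Without DNP 1, BAC 1 and BAC 3, the 3 libraries with brainstem markers, 0 members had an unadjusted p under 0.05 in diabetic versus CON (edgeR), where 9.69% of all genes did. In this fit BAC 2 was the only BAC library. Grin3a had a log2 fold change of 0.86 in BAC versus DNP and -0.85 in DNP versus CON, which share DNP 2 and DNP 3. In BAC versus CON its value was 0.01. Grin2d was then 0.24 higher in the diabetic libraries (unadjusted p = 0.114 in edgeR), against 0.65 with all libraries. Gria1 was -0.30 (unadjusted p = 0.126) and Grin1 -0.35 (unadjusted p = 0.150 in edgeR).

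When CON 2, the library richest in cerebellar markers, was left out as well, 5 libraries remained, CON 1 and CON 3 against DNP 2, DNP 3 and BAC 2. Among these, 4 members had an unadjusted p under 0.05, all lower in the diabetic libraries, where 15.5% of all genes were called by edgeR. Grin2b was at 632 to 709 CPM in the CON libraries and at 316.5 to 420.3 CPM in the diabetic ones, a log2 fold change of -0.84 (standard error 0.11, edgeR unadjusted p = 0.000427, adjusted p = 0.122). Grin2a was at 240.4 to 254 CPM and at 149 to 184 CPM, a log2 fold change of -0.60 (standard error 0.13, edgeR unadjusted p = 0.00436, adjusted p = 0.168). Grin3a had -0.54 and Grin1 -0.44, with unadjusted p values of 0.0187 and 0.0475 in edgeR.

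In the same 5 libraries, 7 of the 10 members, all but Gria4, Grin2c and Grin2d, were lower in each diabetic library than in each CON library, as were 19.1% of all genes. For Gria2 the distance was small, with 677 CPM in BAC 2 and 691 CPM in CON 1, and for Gria3 it was 291 against 294 CPM. Grin2d was higher in each diabetic library (39.4 to 43.8 CPM) than in both CON libraries (32.3 and 35.0 CPM). These 5 libraries were picked after their marker values were known, and they still differed in granule cell markers. The scores were -1.24 and 1.55 in CON 1 and CON 3, and -3.36, -3.43 and -3.53 in DNP 2, DNP 3 and BAC 2. Both CON libraries thus had more of these markers than every diabetic library of this set. The olfactory bulb markers were highest in DNP 2 and BAC 2, with scores of 2.98 and 1.96. The 8 markers of cortical and hippocampal glutamatergic neurons had scores of 1.36 and 1.43 in CON 1 and CON 3, and lower ones of 0.54, 1.35 and 0.27 in DNP 2, DNP 3 and BAC 2. The part of these markers, or of the blood markers given above, in the differences was not tested.

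With the brainstem and granule cell scores as covariates in a fit of all 9 libraries, 5 members had an unadjusted p under 0.05 in diabetic versus CON, where 16.6% of all genes did (edgeR), and none an adjusted p under 0.05. Grin1 (-0.70), Grin2b (-2.37) and Grin3a (-0.87) were lower. Gria4 and Grin2c turned to positive fitted values, 0.73 and 2.56, from -0.43 and -1.21 in the fit without covariates. The value for Grin2c holds only after a linear adjustment for both scores. Its observed levels were 58.2 to 804 CPM in CON and 101 to 321 CPM in the diabetic libraries. In the 5 libraries its log2 fold change was 0.0078. Grin2d was at -0.0005, and Gria1 at -0.06 (unadjusted p = 0.827 in edgeR). Of the members, Grin1 alone had a negative value and an unadjusted p under 0.05 in the fit of all 9 libraries, in the 5 libraries and with the covariates, and its p was above 0.05 without DNP 1, BAC 1 and BAC 3. The map of markers and subunits shows which libraries carry each pattern.

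**Figure D3:**
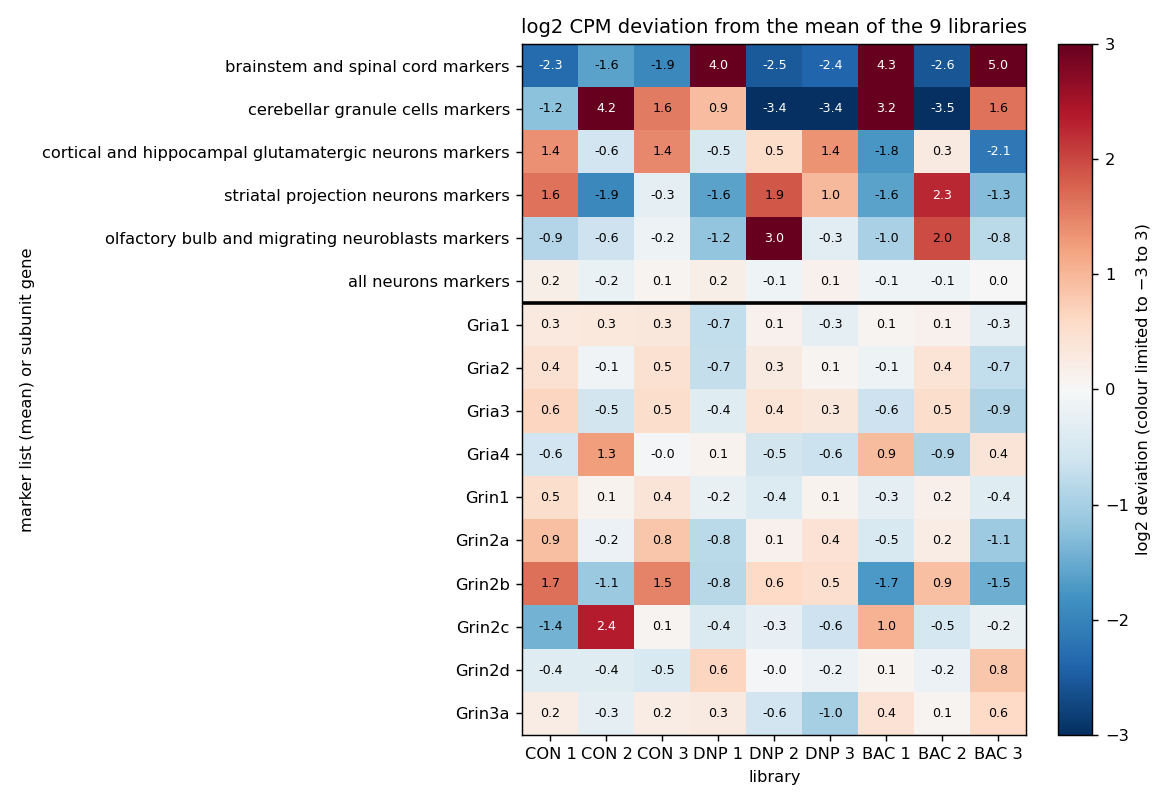
Log2 CPM of each subunit gene (lower rows) as its deviation from the mean of the 9 libraries (columns), beneath the mean deviation of 6 marker lists (upper rows). Colour runs from blue (low) to red (high), is limited to -3 to 3, and each cell gives its value. Grin2c and Gria4 are highest in CON 2 and BAC 1, the columns with the highest granule cell scores of 4.23 and 3.23. Grin2d is highest in BAC 3 and DNP 1, with brainstem scores of 5.02 and 4.02. BAC 1, with a brainstem score of 4.26, has 47.5 CPM of Grin2d, near DNP 2 (43.8 CPM, score -2.52).

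The composition of the receptors was then described by the share of each subunit in the summed FPKM of its pool, which depends on the lengths used and not on the total level. Over the AMPA genes, the share of Gria1 was even, at 32.2% to 40.8% in the 9 libraries. The share of Gria4 was 38.8% in CON 2, 36.3% in BAC 1, 34.4% in BAC 3 and 32.2% in DNP 1, and 10.8% to 16.9% in the other 5. Gria2 and Gria3 made up the difference, with Gria2 at 18.4% to 22.1% in those 4 libraries and at 28.9% to 32.8% in the others. The AMPA pool thus took 2 forms that separated libraries within each group and not the groups.

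Among the GluN2 genes, Grin2c took 92.5% of the pool in CON 2 and 22.2% in CON 1. Grin2b took 2.16% in CON 2 and 48.9% in CON 1, so that the extremes of the series lay among the controls. In DNP the share of Grin2c was 52.3% ± 6.71, and in BAC 64.4% ± 19.5 (SD, n = 3 mice each). Grin2d made up 5.08% ± 2.68 of the pool in CON and 13.6% ± 6.01 in DNP, without overlap between these libraries (exact two-sided permutation test, p = 0.1, the smallest that 3 against 3 allows, adjusted p = 1 over the 11 shares and ratios). In diabetic versus CON its share was 8.12 percentage points higher (exact permutation test, p = 0.0476, adjusted p = 0.524), with BAC 1 (7.16%) below CON 1 (7.67%).

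The log2 ratio of Grin2a to Grin2b was -1.20, 0.49 and -1.12 in CON, -0.41, -0.93 and -0.51 in DNP, and 0.82, -1.13 and -0.06 in BAC. CON 2 and BAC 1 had positive values. The log2 ratio of Grin1 to the summed GluN2 genes ranged from -1.93 in CON 2 to 0.22 in CON 1, which spanned every other library. The log2 ratio of the AMPA to the NMDA pool averaged -0.31 ± 0.41 in the CON libraries, 0.01 ± 0.25 in the DNP libraries and 0.01 ± 0.06 in the BAC libraries (SD of 3 mice per group), with the CON mean set by CON 2 (-0.78). The 3 ratios differed by 0.45 or less on the log2 scale in DNP versus CON (exact permutation test, p = 0.5 to 1). Over the 11 shares and ratios, no adjusted p was under 0.05 in any comparison, and the lowest was 0.524. Libraries of the groups did not overlap for 1 of the 11 in DNP versus CON (the share of Grin2d), and for 0 in the other comparisons. Without CON 2 this number was 3 in DNP versus CON, and without DNP 2 it was 2. In BAC versus DNP it was 7 without BAC 2, 2 without DNP 2 and 1 without BAC 3. In BAC versus CON it was 2 without CON 1, CON 2 or BAC 1, and in diabetic versus CON it was 1 without the same libraries.

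**Figure D4:**
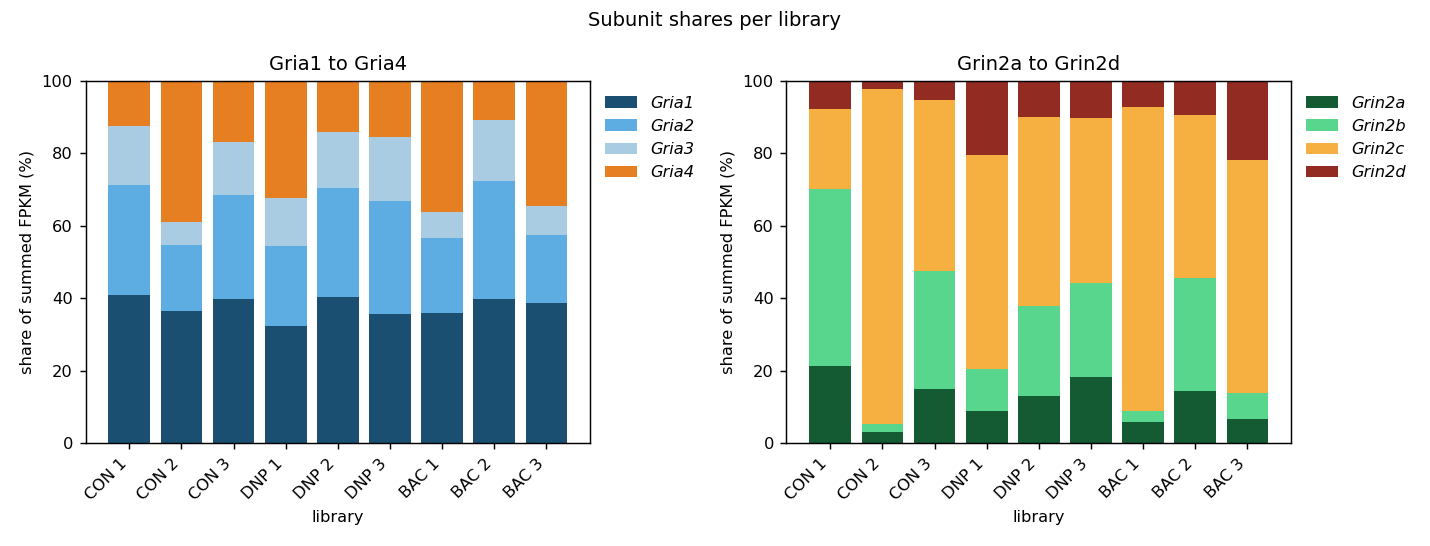
Share of each gene (percent of summed FPKM, vertical axes) in the AMPA pool of Gria1 to Gria4 (left) and in the GluN2 pool of Grin2a to Grin2d (right) in each library (horizontal axes). The share of Gria4 is 32.2% or more in CON 2, DNP 1, BAC 1 and BAC 3 and 16.9% or less in the other libraries, and that of Grin2c runs from 22.2% in CON 1 to 92.5% in CON 2.

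Genes that work with these receptors were counted in 6 lists of 85 genes, of which 84 were tested. In DNP versus CON, 10 were lower and 1 higher at an unadjusted p under 0.05 (edgeR), against 11.2% of all genes, and 0 passed an adjusted p of 0.05. The median log2 fold change of the 84 was -0.22 (all genes 0.01). Of the 22 genes of the postsynaptic scaffold and its kinases, 21 had negative values in DNP versus CON, and all 22 did in BAC versus CON and in diabetic versus CON, with medians of -0.48, -0.71 and -0.62. Of all genes tested, 48.6%, 51.8% and 51.4% had negative values in these comparisons. The summed level of the 22 genes was 2691 to 3280 CPM in DNP 1, BAC 1 and BAC 3, 5128 CPM in CON 2 and 6080 to 8525 CPM in the other 5 libraries. The markers of cortical and hippocampal glutamatergic neurons were also lowest in BAC 3, BAC 1, CON 2 and DNP 1 (scores of -2.15, -1.75, -0.57 and -0.48, against 0.27 to 1.43 in the others), and their part in the counts was not tested. Without those 4 libraries, 20, 18 and 19 of the 22 genes had negative values, with medians of -0.52, -0.17 and -0.37. BAC 2 was then the only BAC library. With the brainstem and granule cell scores as covariates, 19 of 22 did in each of the 3 comparisons, with medians of -0.74, -0.59 and -0.66. In BAC versus DNP, where 2.37% of all genes were called, 0 of the 84 genes had an unadjusted p under 0.05. Of the 84, 7 were lower and 1 higher in BAC versus CON (7.76% of all genes called), and 10 were lower and 1 higher in diabetic versus CON (11.8%).

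Among the partners of AMPA receptors, Frrs1l, an endoplasmic reticulum protein needed for their assembly, had 482 ± 25.0 CPM in CON, 243 ± 45.5 CPM in DNP and 285 ± 68.8 CPM in BAC (SD of 3 mice per group). Its log2 fold change in DNP versus CON was -0.99 (standard error 0.21, edgeR unadjusted p = 0.00142, adjusted p = 0.294), without overlap, and it was -0.80 in the libraries without the 4 that stood apart and -0.52 with the covariates. Nptx1, a secreted pentraxin that clusters AMPA receptors, had 571.5 ± 175 CPM in CON and 265 ± 88.1 CPM in DNP, a log2 fold change of -1.11 (standard error 0.34). This was -0.60 without the 4 libraries and -0.05 with the covariates. Shank2, a scaffold protein of the postsynaptic density, had 164 ± 20.5 CPM in CON, 83.5 ± 29.8 in DNP and 74.4 ± 23.97 in BAC. Its log2 fold change in BAC versus CON was -1.14 (standard error 0.32, edgeR unadjusted p = 0.00598, adjusted p = 0.628), with -0.88 without the 4 libraries and -1.21 with the covariates.

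In the other direction, Grip2, a scaffold protein that binds GluA2 and GluA3, had a log2 fold change of 0.86 in DNP versus CON (edgeR unadjusted p = 0.0384), which was 0.71 without the 4 libraries and turned to -0.09 with the covariates. The highest-ranked gene with more RNA in BAC than in CON was Slc17a6, the vesicular glutamate transporter of the thalamus and brainstem, with 27.5 ± 1.43 CPM in CON and 141 ± 107 CPM in BAC. Its log2 fold change of 2.36 was 0.04 in the comparison without the 4 libraries that stood apart and -0.09 with the covariates. Without those 4, BAC 2 was the only BAC library. Arc, an activity-induced gene that promotes the removal of AMPA receptors from synapses, was lower in BAC than in CON by a log2 fold change of -2.14 (standard error 0.83, edgeR unadjusted p = 0.0312). It was -1.66 without the 4 libraries, again with BAC 2 alone in BAC, and -2.38 with the covariates.

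The genes whose log2 CPM was most like that of each member were searched among 16782 genes with a mean of at least 1 CPM, over the 9 libraries. Rnf165 and Stum were among the genes most like Grin2b (Pearson r = 0.993 for both). Grin2d was most like Ddc (0.987), Slc18a2 (0.986) and Slc6a4 (0.978), which encode an enzyme and transporters of monoamine neurons. Gria4 was most like Nfkbie (0.995), Mtss1 (0.991) and Rps6ka1 (0.989), and Grin2c was most like Pcf11 (0.995). Grin1 was most like Atg9a (0.951), Cyfip2 (0.945) and Ipo5 (0.937). The values for the nearest gene were 0.945 for Gria1 (Zscan22), 0.988 for Gria2 (Ppp1r12a), 0.994 for Gria3 (Hace1), 0.983 for Grin2a (Brinp1) and 0.972 for Grin3a (Pik3cb). The 9 points share the regional makeup of the libraries, so that these values describe the libraries and carry no test.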

How the data were processed

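Poly(A)-selected, non-strand-specific RNA-seq libraries of 9 mouse brains were analysed, in groups taken from the sample labels. Per the paper's methods and the submitters' processing notes, the authors used FastQC 0.11.9 for read quality, fastp for filtering, HISAT2 2.1.0 for alignment to GRCm38, Bowtie2 2.3.4.1 for related alignment steps and StringTie 1.3.3b for quantification. A deposited table of raw gene-level counts and a deposited table of FPKM were used. How the authors treated reads that map to several genes is not given in the sources used here. The authors' FPKM could be obtained from the counts with a fixed length for each gene and the library totals (ratio of lengths between libraries at most 1.000329 over 11860 genes), and thus without TMM factors.

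Counts were fitted over all 9 libraries with edgeR 4.0.16 in R 4.3.3, using filterByExpr (minimum count 10), TMM normalization and the quasi-likelihood test, with Benjamini-Hochberg adjustment over 18501 genes and a threshold of 0.05. The study's methods used DESeq2, which was run as an alternative. CPM values of single genes carry TMM factors. The summed CPM of lists and the CPM per kilobase were scaled to library totals without them. Shares and ratios were tested by exact permutation in SciPy 1.17.1. Alternatives were DESeq2 1.42.0, relative log expression factors, no filter, limma 3.58.1 on log2(FPKM + 1) and log2(FPKM + 0.1), a replicate block, marker scores as covariates and each library left out. The fits without DNP 1, BAC 1 and BAC 3, and without these and CON 2, and the order by transcript length were chosen after seeing the data. The scripts were tested on simulated data.

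The members and all lists (186 entries in 23 lists besides the members) were chosen with earlier results of these data known. The rule named all 10 members, up to 3 pathway genes with the smallest p in each direction of each comparison, and the 3 genes most like each member. Some items selected in this way are not reported here. The behavioural, qPCR, docking and blood data were not analysed here.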

Additional observations from a re-analysis of the deposited data

How the results depend on the processing

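The members had 370 to 12281 counts per library, and their precision is bounded by the spread between mice (coefficient of variation over all genes 36.5%). With 3 mice against 3, an exact two-sided test cannot go below p = 0.1. Of the 40 log2 fold changes of the members, none changed sign with DESeq2, relative log expression factors, no filter or a pseudocount of 0.1, and with a pseudocount of 1 that of Grin3a in diabetic versus CON became 0.0004. Between groups, the deviations of libraries from their group means had correlations of -0.579 to 0.56 for the same replicate number and -0.701 to 0.614 for others. These values also carry the regional makeup of the libraries, so they cannot show whether the numbers pair the mice. With a replicate block, the members with an unadjusted p under 0.05 numbered 1, 1, 0 and 2 in DNP versus CON, BAC versus DNP, BAC versus CON and diabetic versus CON, and no sign changed. Of all 18501 genes, 1688, 382, 1203 and 1804 were called with the block. DESeq2 called 342, 7, 100 and 364 genes at an adjusted p under 0.05 in these 4 comparisons, where edgeR called 0. Relative log expression factors left 0 members at an unadjusted p under 0.05 (BAC versus DNP), and limma with a pseudocount of 1 left 1 (BAC versus CON). These fits called 432 and 1527 of all 18501 genes.

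With the marker scores as covariates, 5, 2, 4 and 5 members had an unadjusted p under 0.05 in the same order of comparisons, and 18 of the 40 signs changed. Of all 18501 genes, 2997, 830, 2769 and 3065 were called in that order. The values that changed sign were 0.78 (Gria4) and 2.56 (Grin2c) in DNP versus CON. For BAC versus DNP they were 0.33 (Gria2), 0.021 (Gria3), -0.087 (Gria4), 0.11 (Grin2a), 0.12 (Grin2b), -0.0041 (Grin2c) and -0.12 (Grin2d). For BAC versus CON they were 0.15 (Gria1), 0.010 (Gria2), 0.69 (Gria4), 2.55 (Grin2c), -0.063 (Grin2d) and -0.58 (Grin3a). For diabetic versus CON they were 0.73 (Gria4), 2.56 (Grin2c) and -0.0005 (Grin2d). BAC 2 was the only BAC library left without DNP 1, BAC 1 and BAC 3, so only log2 fold changes are given here for that fit. Of the values, 11 changed sign. For DNP versus CON that of Gria3 was 0.062. For BAC versus DNP they were 0.24 (Gria2), 0.15 (Gria3), -0.30 (Gria4), 0.35 (Grin2b), -0.087 (Grin2c) and -0.075 (Grin2d). For BAC versus CON they were 0.12 (Gria2) and 0.21 (Gria3). For diabetic versus CON they were 0.0002 (Gria2) and 0.14 (Gria3). Without CON 2 in addition, the same holds. Of the values, 9 changed sign. In DNP versus CON that of Grin2c was 0.046. For BAC versus DNP they were 0.25 (Gria2), 0.16 (Gria3), -0.29 (Gria4), 0.36 (Grin2b), -0.075 (Grin2c) and -0.063 (Grin2d). That of Grin3a in BAC versus CON was -0.10, and that of Grin2c in diabetic versus CON was 0.0078. In the fits where a group had 1 library left, its spread was taken from the other groups. On CPM in place of FPKM, the log2 ratio of Grin1 to the GluN2 sum in BAC versus DNP was 0.095 against -0.27. The cause of these changes was not tested.

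Where leaving out 1 library changed a sign, the lowest and highest log2 values were -0.43 to 0.072 (Gria3), -2.06 to 0.039 (Grin2c), -0.30 to 0.55 (the ratio of Grin2a to Grin2b) and -0.18 to 0.90 (the ratio of Grin1 to GluN2 sum) for DNP versus CON. For BAC versus DNP they were -0.16 to 0.16 (Grin1), -0.35 to 0.23 (Gria2), -0.23 to 0.42 (Grin2d), -0.50 to 0.046 (the ratio of Grin1 to GluN2 sum) and -0.094 to 0.14 (the ratio of AMPA sum to NMDA sum). In BAC versus CON they were -0.55 to 0.61 (Gria4), -1.50 to 0.74 (Grin2c) and -0.44 to 0.63 (the ratio of Grin1 to GluN2 sum). In diabetic versus CON they were -0.26 to 0.081 (Grin3a), -0.75 to 0.28 (Gria4), -1.72 to 0.39 (Grin2c), -0.056 to 0.79 (the ratio of Grin2a to Grin2b) and -0.31 to 0.77 (the ratio of Grin1 to GluN2 sum). The number of members with an unadjusted p under 0.05 ranged, with 1 library left out, from 0 to 3 (DNP versus CON), 0 to 2 (BAC versus DNP), 0 to 5 (BAC versus CON) and 0 to 5 (diabetic versus CON). Of all 18501 genes, 1399 to 2180, 205 to 1448, 596 to 2640 and 1400 to 2757 were called in the same order. The number of all genes past an adjusted p of 0.05 in edgeR ranged from 0 to 1 in the 3 comparisons with CON, with 1 gene without CON 2 in each and without CON 1 in diabetic versus CON. Of the 11 shares and ratios, the number without overlap ranged from 1 to 3 (DNP versus CON), 0 to 7 (BAC versus DNP, with 7 without BAC 2), 0 to 2 (BAC versus CON) and 0 to 1 (diabetic versus CON).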
